A study of Homo sapiens with 4 samples.

Results

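MDM2, PMAIP1, BBC3, BAX, FAS, TNFRSF10B, ZMAT3, SESN1 and TP53I3 are 9 target genes of the transcription factor p53 with roles in cell death, in repair and stress control, and in the restraint of p53 itself. They were taken by symbol from the 33538 genes listed in each library, and all 9 were detected in all 4 libraries. The cells were HCEC 1CT, human colonic epithelial cells made immortal by TERT and CDK4, and they were profiled by droplet single-cell RNA sequencing (scRNA-seq). A scrambled control shRNA (shScr) or an shRNA against the tumour suppressor APC (shAPC) was introduced, and cells of each kind were harvested at day 3 and at day 7 after transduction. The 4 groups are given in a fixed library order, which is shScr then shAPC for day 3, followed by shScr then shAPC for day 7. All 4 groups were transduced and cultured with puromycin, and each group held 1 library. A difference between groups therefore had no replicate check, no test was run, and every interval given here covers counting error only. The sources differ on the virus, retroviral in the labels and lentiviral in the methods, and on the 10x Genomics kit, v2 in the labels and V3 in the methods. The headers of the deposited matrices carried Cell Ranger 3.0.2 in the shScr files and 3.0.0 in the shAPC files, so the software version and the shRNA cannot be told apart.

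p53 is a sensor of DNA damage and other stress. When it is stabilised it activates genes that arrest the cell, repair DNA or start apoptosis, and it activates MDM2, the ubiquitin ligase that degrades it, in a negative feedback loop. In the intrinsic arm of apoptosis, the BH3-only proteins NOXA (encoded by PMAIP1) and PUMA (encoded by BBC3) release the pore-forming protein BAX, while FAS and TNFRSF10B (DR5) are receptors of the extrinsic arm. ZMAT3 is an RNA-binding protein, SESN1 is a sestrin that restrains mTORC1 under stress, and TP53I3 (PIG3) is an oxidoreductase. Several of these genes are not regulated by p53 alone. PMAIP1, BBC3 and TNFRSF10B are also targets of ATF4 and CHOP (encoded by DDIT3), the transcription factors of the integrated stress response, and PMAIP1 responds to interferon signalling.

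Levels were summed over kept cells, which were 1116, 788, 2600 and 1478 in library order. A UMI is 1 tagged molecule, and CPM are the UMIs of a gene scaled to 1000000 UMIs of the kept cells, of which each library held between 28451455 and 39797418. The median depth per kept cell was 35109, 49685.5, 1330 and 21029.5 UMIs, and the limit of 5% mitochondrial UMIs removed 51.1% of the shAPC day 7 barcodes against 23.4% to 28.8% in the others. The libraries of the same day shared 23 barcodes at day 3 and 25 at day 7, and the other pairs shared 2 to 7. APC was at 16.1, 5.52, 19.1 and 6.61 CPM in library order. The cells carried little of the labelled epithelial identity, since EPCAM had 0 to 2 UMIs per library, CDH1 0 to 1 and KRT20 and CDX2 0. The 9 epithelial markers summed to 25.0 to 49.3 CPM. Nearly all of it was KRT8 (9.57 to 19.4 CPM), CLDN7 (6.26 to 16.9 CPM), KRT18 (3.02 to 7.13 CPM) and KRT19 (2.34 to 5.72 CPM). The 7 mesenchymal markers summed to 8796 to 11347 CPM, the 4 immune markers to 17.4 to 29.7 CPM, nearly all of it CD68 (17.4 to 29.6 CPM) with PTPRC at no more than 1 UMI, and 3 endothelial markers summed to at most 0.126 CPM. In such summed counts, fewer cells that express a gene and less RNA per cell cannot be told apart.

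The DNA before the start sites is shown first, because p53 acts on its targets through it. RefSeq promoter windows on GRCh38.p14 were matched for 8 of the 9 members, with 16 windows over alternative starts, and TNFRSF10B had no entry. Each window was searched over the 250 bases before the start. The p53 response element was taken as a pair of adjacent p53 decamers with at most 3 mismatches and none in the C and G of either core. It was found in 4 of the 8 members, counted over their 16 windows, and in 0.914% of 35116 promoter windows. The first counts genes with a match in any window and the second counts single windows, so the 2 are not on the same footing. The same MDM2 site was matched from overlapping windows. The element is in capitals in the lines that follow. The MDM2 element lies in the first intron ahead of the internal promoter, 94 bases before its start, with 2 mismatches. The FAS element lies in an intron of the MANE Select transcript and in an exon of other transcripts, with 2 mismatches, and the SESN1 element lies in an intron before an internal start, with 3 mismatches. The PMAIP1 element, also with 3 mismatches, lies upstream of the gene.
MDM2, chr12:68808903-68808962, plus strand: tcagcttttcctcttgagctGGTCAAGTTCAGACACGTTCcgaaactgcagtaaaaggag
FAS, chr10:88991304-88991333, plus strand: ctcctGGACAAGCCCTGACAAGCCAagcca
SESN1, chr6:109008998-109009057, minus strand: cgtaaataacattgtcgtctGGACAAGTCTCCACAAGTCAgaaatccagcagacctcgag
PMAIP1, chr18:59899791-59899850, plus strand: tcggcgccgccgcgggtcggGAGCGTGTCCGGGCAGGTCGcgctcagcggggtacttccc

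The single p53 decamer without mismatch was found in the FAS and SESN1 windows and in 5.57% of all windows. None of the members' windows held the full cyclic AMP response element TGACGTCA (1.65% of all windows), the C/EBP-ATF composite TGATGNAAN (3.13%), the interferon element GAAANNGAA (6.88%) or the TATA box TATAAA (10.7%), each searched on both strands. The core TGACG of the cyclic AMP element, which is contained in the full element and was found in 21.2% of all windows, was present in PMAIP1, BAX and SESN1. Members with several windows had more places to match, so a count of members cannot be set against a share of windows. In PMAIP1 the TGACG core lies on the minus strand, 55 bases before the start. It is in capitals here because PMAIP1 had the widest spread between cells in shAPC day 3.
PMAIP1, chr18:59899921-59899965, plus strand: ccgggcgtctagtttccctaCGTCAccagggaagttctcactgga
These matches describe letters in a window of fixed length. Sites farther from the start, such as those deeper in introns, were not searched, and the counts do not show which start was used.

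**Figure D1:**
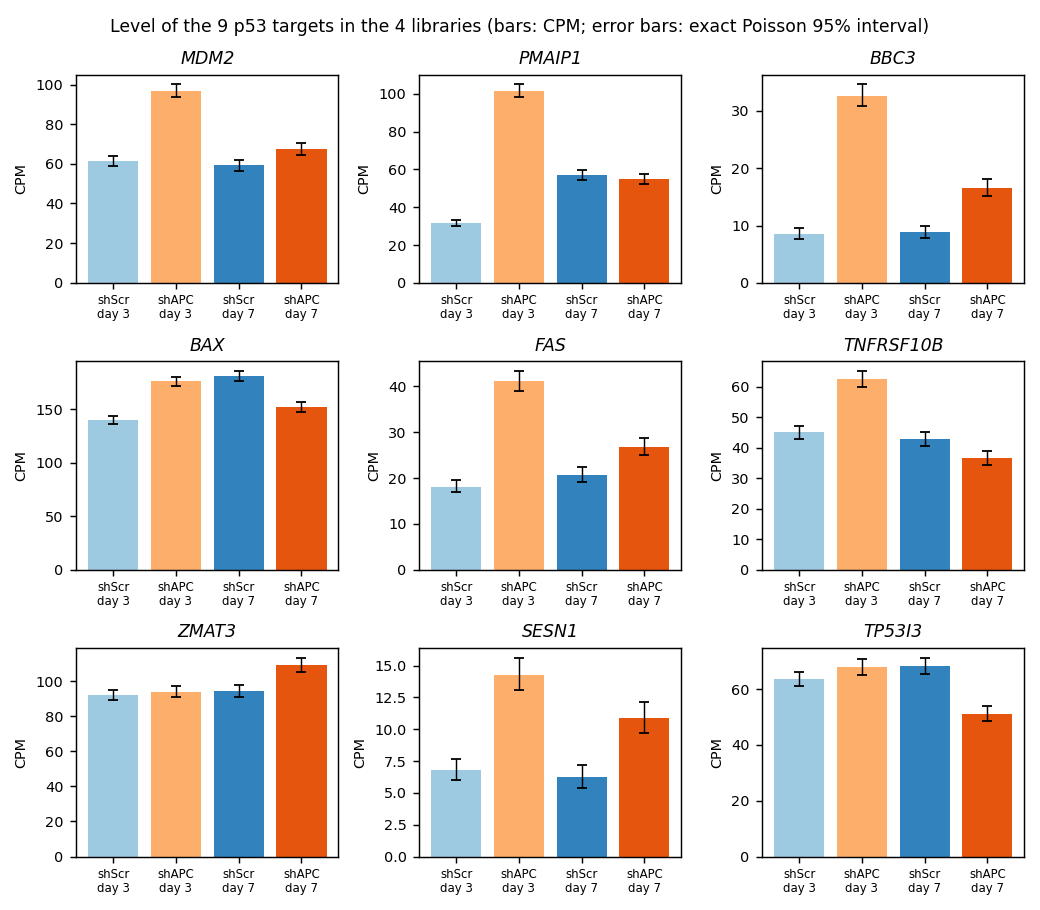
Level of each of the 9 p53 targets in CPM (vertical axes, each from 0) in the 4 libraries, 1 bar per library, with exact Poisson 95% intervals. PMAIP1, BBC3, FAS, SESN1, MDM2 and TNFRSF10B had their highest level in shAPC day 3, whereas ZMAT3 was highest in shAPC day 7 and TP53I3 lowest there.

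At day 3 all 9 genes had a higher level in shAPC than in shScr, from a log2 ratio of 0.03 for ZMAT3 to 1.93 for BBC3, with a median of 0.65. The interval lay above 0 for 8 of them, ZMAT3 being the exception. The whole transcriptome was shifted in the same direction, with a median log2 ratio of 0.28 over the 5175 genes tested, 79.2% of those genes were higher in shAPC, and 7 of the 9 genes lay above that median. With most genes of the transcriptome higher, the count of 9 is given as a description. PMAIP1, BBC3, FAS and SESN1 were at least 2-fold higher. On the scale used for all genes (log2 of CPM + 1, with a gene tested if it reached 20 CPM in either library) this held for PMAIP1, BBC3 and FAS, while SESN1 stayed under 20 CPM and was not counted. BBC3 and FAS reached 20 CPM at day 3 in shAPC only. Over all tested genes, 3.86% were at least 2-fold higher in shAPC and 0.425% at least 2-fold lower. Relative to the median of all genes, PMAIP1 and BBC3 remained past 2-fold, beside 2.13% of all genes higher and 0.87% lower.

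At day 7 the difference between shAPC and shScr was smaller and mixed. The intervals of BBC3, SESN1, FAS, ZMAT3 and MDM2 lay above 0, those of TP53I3, BAX and TNFRSF10B lay below 0, and that of PMAIP1 included 0. The median of the 9 was 0.18 as a ratio of CPM. The median of all tested genes was -0.10 on the scale of log2 of CPM + 1. On that scale the 7 members that reached 20 CPM had a median of -0.05. The distance from all genes therefore depended on which members were counted, since BBC3 and SESN1 did not reach 20 CPM. MDM2, the middle gene of the 9, was at 0.18 on either scale. None of the 9 was past 2-fold at day 7, beside 0.787% of all tested genes higher and 1.77% lower. From day 3 to day 7 in shScr, the 9 genes had a median log2 ratio of 0.04 beside 0.05 for all genes, and none was past 2-fold, beside 0.329% of genes higher and 0.79% lower. From day 3 to day 7 in shAPC, 8 of the 9 intervals lay below 0 and that of ZMAT3 above it, where 18.2% of all tested genes were higher at day 7. The median of the 9 was -0.52 beside -0.34 for all genes. None was past 2-fold, beside 0.058% of genes higher and 5.78% lower, or 0.599% higher and 2.43% lower relative to the median of all genes. In each comparison the median of the 9 is a ratio of CPM, and that of all genes is on the scale of CPM + 1 with the 20 CPM minimum. The comparisons share libraries, so a high level in shAPC day 3 enters both the day 3 ratio and the shAPC time ratio.

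**Figure D2:**
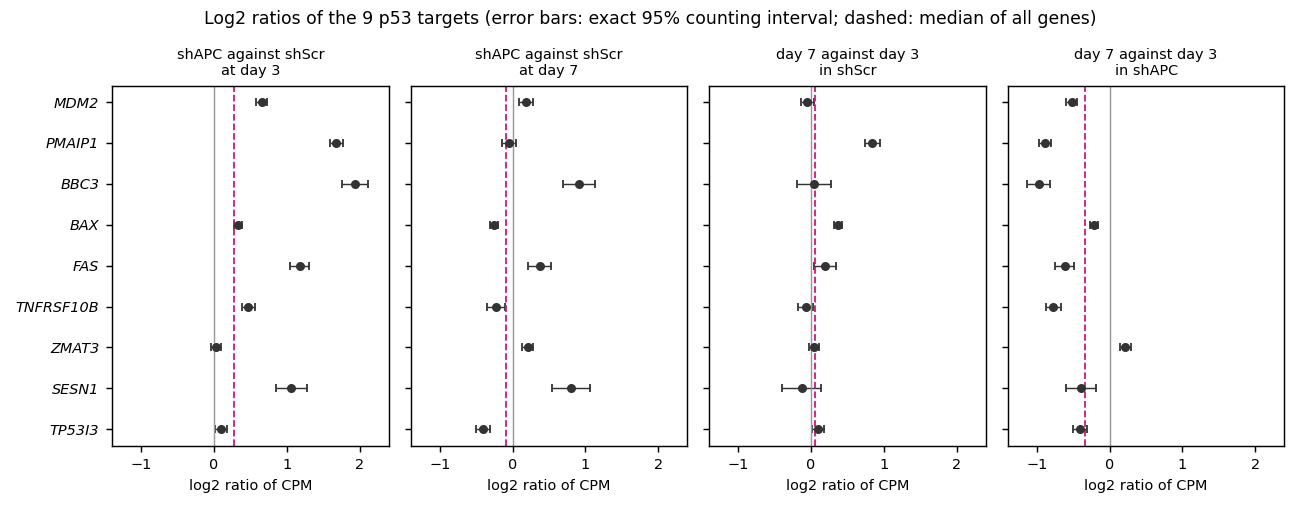
Log2 ratio of CPM (horizontal axes) for the 9 p53 targets in the 4 comparisons, with exact 95% counting intervals as bars, a grey line at 0 and a dashed line at the median of all tested genes. At day 3 BBC3 (1.93) and PMAIP1 (1.68) lay farthest to the right, and in the shAPC time comparison 8 of the 9 genes lay left of 0, where the median of all genes was also below 0 (-0.34).

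MDM2 (ENSG00000135679, chromosome 12 at 68808177 to 68845544, plus strand, GRCh38 with GENCODE 44, protein coding) closes the feedback loop on p53. It was at 61.5 CPM (95% interval 59.1 to 64.0) in shScr day 3, 96.7 (93.5 to 100.04) in shAPC day 3, 59.2 (56.5 to 62.0) in shScr day 7 and 67.3 (64.3 to 70.4) in shAPC day 7. The 2 shScr libraries had overlapping intervals, and both shAPC libraries lay above them. At day 3 the log2 ratio of shAPC to shScr was 0.65 (0.58 to 0.73), and the day 7 ratio was 0.18 (0.09 to 0.28). Over time in shAPC it was -0.52 (-0.61 to -0.44). CDKN1A, the p53 target that inhibits cyclin-dependent kinases, was at 516, 639, 539 and 649.6 CPM, and shAPC exceeded shScr by a log2 ratio of 0.31 and, at the later day, 0.27. The median of all tested genes was 0.28 at day 3 and -0.10 at day 7. CDKN1A lay above 54.3% of tested genes at day 3, near the middle of them, and above 87.9% at day 7.

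PMAIP1 (ENSG00000141682, chromosome 18 at 59899996 to 59904305, plus strand, protein coding) encodes the BH3-only protein NOXA, which neutralises MCL1. It was at 31.7 CPM (29.96 to 33.5) in shScr day 3 and 102 CPM (98.2 to 105) in shAPC day 3, a 3.20-fold difference and a log2 ratio of 1.68 (1.59 to 1.77). The day 7 levels were 56.8 CPM (54.2 to 59.5) in shScr and 54.8 CPM (52.1 to 57.5) in shAPC, with a log2 ratio of -0.05 (-0.15 to 0.05). The 2 day 7 libraries thus lay together, between the day 3 libraries. Over time in shScr the log2 ratio of PMAIP1 was 0.84 (0.74 to 0.95), which exceeded that of 99.3% of tested genes, and in shAPC it was -0.89 (-0.98 to -0.80). The genes nearest to PMAIP1 in profile over the 4 libraries, by Euclidean distance among 5299 genes, were RNF169, IER2 and PHLDA1.

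BBC3 (ENSG00000105327, chromosome 19 at 47220822 to 47232766, minus strand, protein coding) encodes PUMA, the BH3-only protein that binds all main BCL2 survival proteins. Its level was 8.57 CPM (7.68 to 9.53) in shScr day 3 and 8.81 CPM (7.80 to 9.91) in shScr day 7, which overlapped. It was 32.7 CPM (30.8 to 34.6) in shAPC day 3 and 16.6 CPM (15.2 to 18.2) in shAPC day 7, so both shAPC libraries were above both controls. At day 3 its log2 ratio of 1.93 (1.76 to 2.11) lay above 99.0% of tested genes, and the day 7 ratio was 0.92 (0.70 to 1.14). Nearest in profile to BBC3 were LINC00973, SESN2 and AL603756.1. SESN2, a sestrin induced by both p53 and ATF4, was at 12.7, 57.1, 15.2 and 23.3 CPM in library order.

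BAX (ENSG00000087088, chromosome 19 at 48954815 to 48961798, plus strand, protein coding) encodes the effector that permeabilises mitochondria. It was at 139.9 CPM (136 to 144) in shScr day 3, 176 (172 to 180.5) in shAPC day 3, 181 (176 to 185) in shScr day 7 and 152 (147 to 156) in shAPC day 7. The order of shRNAs was opposite at the 2 days, with log2 ratios of 0.33 (0.28 to 0.38) and -0.25 (-0.31 to -0.19). The day 3 value was near the shift of all genes, and under TMM scaling and DESeq2 size factors it became -0.05 and -0.03.

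FAS (ENSG00000026103, chromosome 10 at 88953813 to 89029605, plus strand, protein coding), the receptor of FAS ligand, was at 18.1 CPM (16.8 to 19.5) in shScr day 3, 41.1 (39.0 to 43.3) in shAPC day 3, 20.7 (19.2 to 22.4) in shScr day 7 and 26.8 (24.9 to 28.8) in shAPC day 7. The shScr intervals overlapped and both shAPC libraries were higher. The day 3 log2 ratio was 1.18 (1.05 to 1.31), and that of day 7 was 0.37 (0.22 to 0.52). Its nearest profiles were COQ9, RBM22 and NINJ1, the last of which is a p53 target for membrane rupture in dying cells and was at 40.7, 93.3, 43.2 and 58.0 CPM in library order. The transcript of its ligand, FASLG, had no UMI in any library.

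TNFRSF10B (ENSG00000120889, minus strand, protein coding) encodes DR5, a receptor of the ligand TRAIL. It was at 45.0 CPM (42.9 to 47.1) in shScr day 3, 62.3 (59.7 to 65.001) in shAPC day 3, 42.7 (40.4 to 45.0) in shScr day 7 and 36.5 (34.3 to 38.8) in shAPC day 7. Its highest and its lowest level were both in shAPC, and the shScr intervals overlapped. Its log2 ratio of shAPC to shScr was 0.47 (0.38 to 0.56) for day 3 and -0.23 (-0.34 to -0.11) for day 7. TNFRSF10D, a decoy receptor of TRAIL that lacks a functional death domain, was ordered the other way round, with -0.32 at day 3 and 0.50 at day 7.

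The remaining members are ZMAT3, SESN1 and TP53I3, whose roles were given with the background. ZMAT3 (ENSG00000172667, chromosome 3 at 178960121 to 179072215, minus strand) was at 92.1 CPM (89.1 to 95.1), 94.0 (90.8 to 97.3) and 94.6 (91.2 to 98.1) in shScr day 3, shAPC day 3 and shScr day 7, which overlapped, and at 109 CPM (105 to 113) in shAPC day 7. The ZMAT3 ratio of shAPC to shScr was, on the log2 scale, 0.03 (-0.04 to 0.10) for day 3, the lowest of the 9, and 0.21 (0.13 to 0.28) for day 7. SESN1 (ENSG00000080546, chromosome 6 at 108984309 to 109094846, minus strand) was the least counted, with 272, 499, 195 and 309 UMIs, or 6.83 CPM (6.05 to 7.70), 14.3 (13.1 to 15.6), 6.24 (5.40 to 7.18) and 10.9 (9.68 to 12.1), in library order. SESN1 was thus higher in shAPC at both days, by log2 ratios of 1.06 (0.85 to 1.28) and 0.80 (0.54 to 1.06). TP53I3 (ENSG00000115129, chromosome 2 at 24077433 to 24085861, minus strand) was at 63.6 CPM (61.2 to 66.1), 67.9 (65.2 to 70.7), 68.2 (65.3 to 71.1) and 51.2 (48.6 to 53.9) in the same order. Its day 3 log2 ratio was 0.09 (0.01 to 0.18), and its day 7 ratio of -0.41 (-0.51 to -0.31) was the lowest of the 9.

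The size of the day 3 ratios depended on scaling and on which cells were summed. Over the 10 alternatives, which are given in the closing section, the day 3 log2 ratio of PMAIP1 ranged from 0.78 to 1.68, that of BBC3 from 0.57 to 1.93, FAS from 0.60 to 1.37, SESN1 from 0.66 to 1.06 and MDM2 from 0.27 to 0.66. These 5 genes were above 0 throughout. BAX ranged from -0.05 to 0.34, ZMAT3 from -0.35 to 0.07 and TP53I3 from -0.29 to 0.11, so that no direction can be given for these 3 at day 3, and TNFRSF10B ranged from 0.09 to 0.52. At day 7 BBC3 ranged from 0.89 to 1.09 and TP53I3 from -0.88 to -0.28, whereas SESN1 became -0.19 and FAS -0.15 with the mean over cells of CPM.

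**Figure D3:**
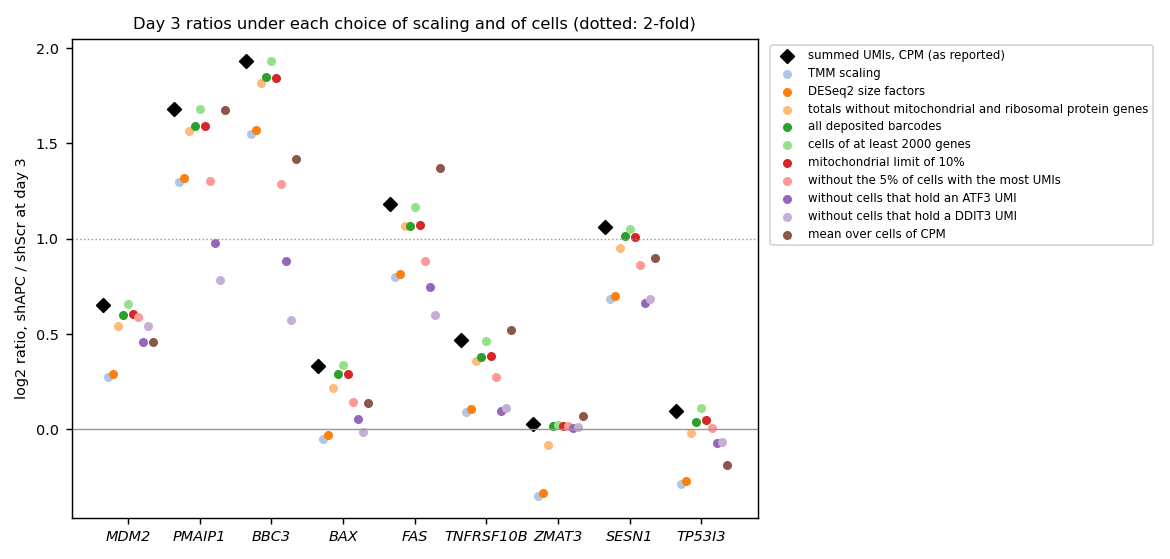
Log2 ratio of shAPC to shScr at day 3 (vertical axis) for each p53 target (horizontal axis), with the reported value as a black diamond and each alternative scaling or set of cells as a coloured point. PMAIP1, BBC3, FAS, SESN1, MDM2 and TNFRSF10B stayed above 0 in all of them, and leaving out cells with an ATF3 or a DDIT3 UMI put every gene below the dotted 2-fold line.

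Shares of cells with a UMI were compared after each cell was thinned to 2000 UMIs, which left 899, 673, 1198 and 1087 cells in library order and put 217, 115, 1402 and 391 shallower cells aside. PMAIP1 was seen in 5.67% of shScr day 3 cells (exact binomial 95% interval 4.25 to 7.39) and 11.9% of shAPC day 3 cells (9.54 to 14.6), which did not overlap, and in 9.93% and 10.1% at day 7. Without thinning these shares were 43.9%, 62.1%, 26.2% and 41.3%, which follow the depth of the libraries. FAS was seen in 3.89% (2.73 to 5.37) and 7.43% (5.56 to 9.68) of the day 3 cells, which did not overlap either, and in 3.84% and 5.34% of the day 7 cells. For BBC3 the shares were 1.56%, 3.57%, 1.92% and 3.68% in the library order, with intervals that overlapped at day 3. After thinning to 5000 UMIs, which kept only deeper cells, the BBC3 intervals did not overlap at day 3 (2.52 to 5.25 and 9.55 to 14.8) or at day 7 (2.69 to 5.11 and 6.43 to 9.92). Its unthinned shares were 20.4%, 38.5%, 7.69% and 20.8%. ZMAT3 was seen in 15.9%, 12.8%, 15.2% and 20.9% of cells and TP53I3 in 12.6%, 11.6%, 13.4% and 8.37%, so that at day 7 their intervals did not overlap between shAPC and shScr, in opposite directions. At 5000 UMIs the day 7 intervals of shScr and shAPC did overlap, for ZMAT3 (31.9 to 37.8 and 35.6 to 41.7) and for TP53I3 (24.2 to 29.7 and 20.5 to 25.8). For MDM2, BAX, TNFRSF10B and SESN1 the intervals of shAPC and shScr at 2000 UMIs overlapped at both days. At 5000 UMIs those of MDM2 were apart at day 3 (20.1 to 26.0 in shScr and 26.9 to 34.3 in shAPC) and those of BAX at day 7 (54.7 to 60.8 and 46.7 to 53.1). No cell type that should lack these genes was present, so the share given by free RNA could not be measured.

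**Figure D4:**
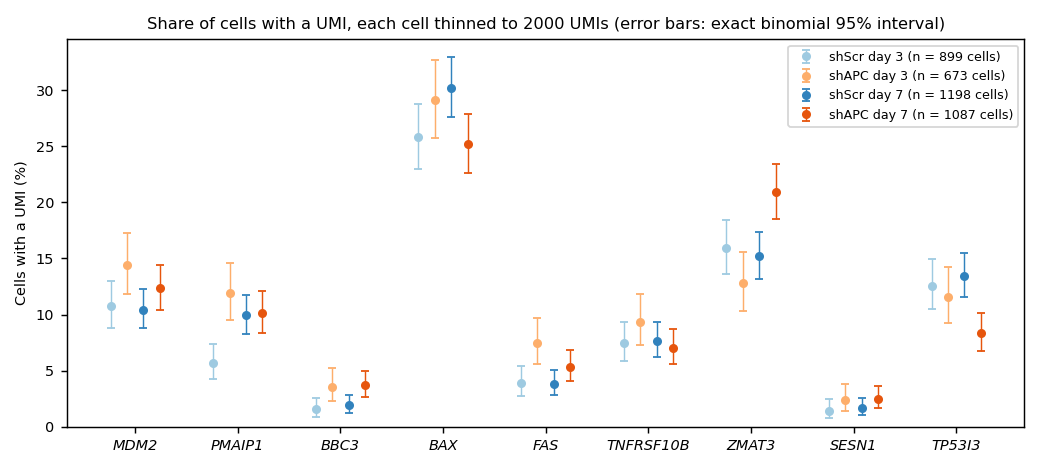
Percent of cells with at least 1 UMI of each p53 target (vertical axis, from 0) in the 4 libraries after thinning each cell to 2000 UMIs, with exact binomial 95% intervals. PMAIP1 was seen in 5.67% of shScr day 3 cells and in 9.93% to 11.9% of the cells of the other libraries.

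Within libraries, PMAIP1 was spread unevenly over cells. After thinning to 5000 UMIs, 23 of 616 shAPC day 3 cells (3.73%) held at least 3 PMAIP1 UMIs, with a maximum of 9, against 3 of 809 shScr day 3 cells (0.371%), 13 of 1036 in shScr day 7 and 15 of 994 in shAPC day 7. The variance of its count over cells was 2.36 times the mean in shAPC day 3 and 1.22, 1.48 and 1.41 times in the shScr day 3, shScr day 7 and shAPC day 7 libraries. A ratio near 1 is what counting alone gives, and for the other 8 genes the ratio lay between 0.929 and 1.36 over all libraries. Cells in which at least 4 of the 9 genes were seen made up 8.53%, 16.9%, 11.9% and 12.9% of the thinned cells in library order.

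Because PMAIP1, BBC3 and TNFRSF10B are also targets of the integrated stress response, the genes were compared between cells with and without a UMI of ATF3 or DDIT3, 2 transcription factors of that response. ATF3 was at 1.03, 44.7, 15.4 and 3.37 CPM and DDIT3 at 16.6, 178, 48.3 and 34.0 CPM in library order. In shAPC day 3, 38 of 616 cells thinned to 5000 UMIs held an ATF3 UMI. PMAIP1 was at 332 CPM in these cells and at 64.7 CPM in the others, a log2 ratio of 2.36 (1.92 to 2.78). BBC3 was at 100 and 24.9 CPM, or 2.01 (1.19 to 2.75), and TNFRSF10B at 163 and 48.8 CPM, or 1.74 (1.13 to 2.31). FAS, MDM2, BAX and TP53I3 were also higher in cells with ATF3, by 1.27, 1.20, 1.03 and 0.86, while the intervals of ZMAT3 (-0.15 to 1.09) and SESN1 (-1.16 to 2.28) included 0. After thinning to 2000 UMIs, where 19 of 673 cells held ATF3, only the intervals of PMAIP1, FAS and TNFRSF10B lay above 0. All values in this comparison come from cells of 1 library, and cells are not replicates. The split does not tell the integrated stress response apart from p53 activity, and what raised the genes in these cells was not tested.

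Split by DDIT3, which was seen in 137 of the same 616 cells, BBC3 differed most, at 81.8 CPM with DDIT3 and 14.6 CPM without, a log2 ratio of 2.48 (1.85 to 3.14). PMAIP1 was at 147 and 62.2 CPM, or 1.24 (0.87 to 1.62). FAS, TNFRSF10B, BAX, MDM2 and TP53I3 were higher by 0.90, 0.76, 0.75, 0.67 and 0.62. ZMAT3 was at -0.16 (-0.59 to 0.26) and SESN1 at 0.81 (-0.28 to 1.82). After thinning to 2000 UMIs, where 91 of 673 cells held DDIT3, FAS was at -0.07 (-1.46 to 1.08) and MDM2 at 0.03 (-0.83 to 0.80). TP53I3 was at 0.31 (-0.63 to 1.15) there, while the intervals of BBC3, PMAIP1, BAX, TNFRSF10B and SESN1 lay above 0. PMAIP1 was likewise higher in the 14 of 1036 shScr day 7 cells with ATF3, at 343 against 52.3 CPM (log2 ratio 2.71, 2.05 to 3.32). In the 12 of 994 shAPC day 7 cells with ATF3 it was at 267 against 53.4 CPM (2.32, 1.49 to 3.05). In shScr day 3 only 3 of 809 cells held ATF3, too few to compare. The DDIT3 split in the other libraries was not alike. In shScr day 3, where 54 of 809 cells held DDIT3, PMAIP1 was at 33.3 CPM with and 33.6 CPM without it (-0.01, -1.17 to 0.96) and BBC3 at 7.41 and 8.21 CPM (-0.15, -3.26 to 1.83). In shScr day 7, with 87 of 1036 cells, PMAIP1 was at 145 and 48.1 CPM (1.59, 1.17 to 2.00), while the interval of BBC3 included 0 (0.68, -1.03 to 2.04). In shAPC day 7, with 113 of 994 cells, PMAIP1 was at 83.2 and 52.4 CPM (0.67, 0.18 to 1.12) and the interval of BBC3 again included 0 (0.81, -0.07 to 1.61). At 2000 UMIs, with 38 of 1087 cells, BBC3 in shAPC day 7 was at 92.1 and 16.7 CPM (2.46, 1.05 to 3.66). The PMAIP1 interval there included 0 (0.71, -0.63 to 1.80), so the contrast between libraries depended on the thinning depth. These intervals are wide where few cells held DDIT3, and the difference between libraries was not tested. IFNB1, the gene of interferon beta, was seen in 4 of the 616 shAPC day 3 cells. These held 17 PMAIP1 UMIs, or 850.0 CPM against 76.1 CPM in the others (3.48, 2.68 to 4.19). The intervals of FAS (2.32, 0.01 to 3.91) and BAX (1.34, 0.12 to 2.33) also lay above 0, and those of the remaining members included 0. With so few cells these values are a description.

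**Figure D5:**
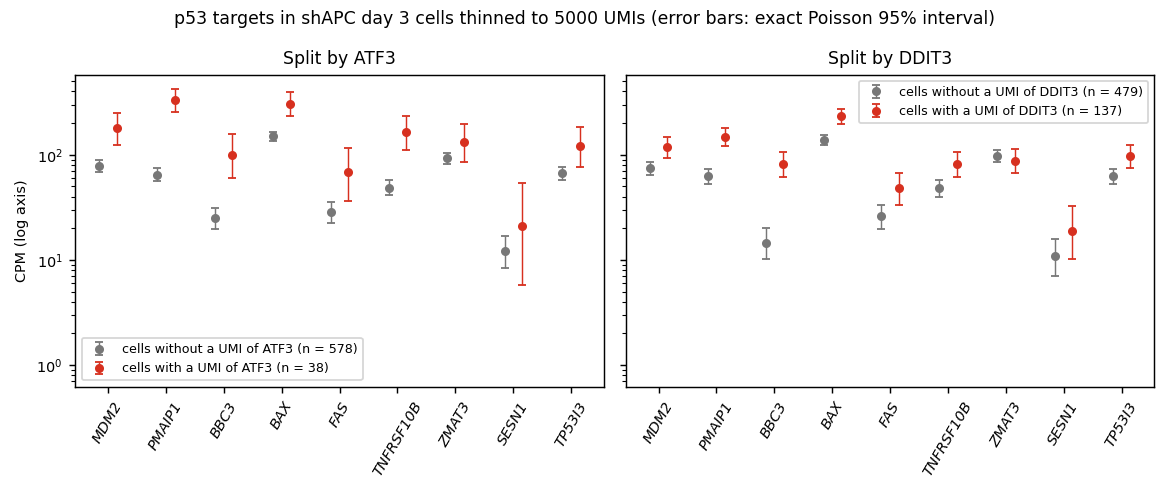
Level of each p53 target (vertical axis, CPM on a log axis) in shAPC day 3 cells with (red) and without (grey) a UMI of ATF3 (left) or DDIT3 (right), after thinning to 5000 UMIs, with exact Poisson 95% intervals. PMAIP1 and BBC3 were apart in both panels, and ZMAT3 was not.

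The day 3 ratios were smaller without the cells that held these markers. When all kept cells with an ATF3 UMI were left out of both libraries (35 of shScr and 130 of shAPC, without thinning), the day 3 log2 ratio became 0.98 for PMAIP1, 0.89 for BBC3, 0.75 for FAS, 0.66 for SESN1 and 0.10 for TNFRSF10B, and the median of the 9 became 0.46. When cells with a DDIT3 UMI were left out (322 and 396), it became 0.78, 0.57, 0.60, 0.68 and 0.11 in the same order. None of the 9 was then past 2-fold. Both alternatives were chosen after seeing the data, and since a deep cell is more likely to show a UMI they also removed deep cells. What part depth had was not tested.

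Of 40 other p53 targets, 26 reached 20 CPM in 1 of the day 3 libraries, and 10 of these were at least 2-fold higher in shAPC and none lower, beside the 3.86% and 0.425% of all genes. Their median was 0.65. GADD45A, a growth arrest and DNA damage gene, was at 71.8 and 462 CPM (log2 ratio 2.69), PLK2 at 11.4 and 56.9 CPM (2.31), and BTG2, an antiproliferative gene, at 7.31 and 31.7 CPM (2.12). PLK2 and BTG2 thus reached 20 CPM at day 3 only in shAPC, where they were high. The same held for SESN2 (12.7 and 57.1 CPM), AEN (18.0 and 57.6 CPM), DDB2 (16.6 and 45.6 CPM) and TP53INP1 (10.5 and 22.1 CPM). The 20 CPM minimum therefore partly set the count of 10, which is a description. At day 7, 2 of 23 were at least 2-fold higher, beside 0.787% of all genes. They were BTG2 (1.10) and TP53INP1 (1.42), a p53-induced gene tied to autophagy and stress, and both reached 20 CPM only in shAPC. From day 3 to day 7 in shAPC, 5 of 26 were at least 2-fold lower, with GADD45A at -2.09 and GDF15 at -1.75, beside 5.78% of all genes. GDF15 (64.5 and 19.2 CPM) and PLK2 (56.9 and 18.0 CPM) reached 20 CPM in shAPC only at day 3. In shScr over time 1 of 20, GADD45A (1.19), was at least 2-fold higher, beside 0.329% of all genes.

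The lists of the repair and death machinery held few genes that reached 20 CPM, and with 3.86% of all genes at least 2-fold higher at day 3 nothing can be read from counts of 0 or 1. Of 26 DNA repair genes, 12 reached 20 CPM at day 3 and 1, DDB2, a p53 target that recognises ultraviolet damage, was past 2-fold (16.6 and 45.6 CPM, log2 ratio 1.46). XPC and XPA, of the same nucleotide excision pathway, had ratios of 0.85 and 0.79, and PRKDC 0.01. None of 10 was past 2-fold at day 7. Of the BCL2 family beyond the members, none of 6 tested genes was past 2-fold at day 3, with MCL1, the survival partner of NOXA, at 108 and 181 CPM (0.75), BAK1 at 0.76 and BCL2L1 at -0.26. None of 5 genes of the death receptor arm was past 2-fold at day 3 or day 7, with FADD at 0.55 and CFLAR, an inhibitor of caspase-8 activation, at 0.52 at day 3. Among executioners and their inhibitors 1 of 6, BIRC3, was past 2-fold at day 3 (1.26), and it was the gene past 2-fold lower at day 7 (-1.77). DDB2, XPA (11.7 and 20.1 CPM) and BIRC3 (19.9 and 47.8 CPM) reached 20 CPM at day 3 only in shAPC, where they were high. At day 7 BIRC3 reached it only in shScr (48.9 CPM, against 14.4 CPM in shAPC). DDB2 is also among the other p53 targets, so it is counted in both lists. Each of these lists was chosen with results of these libraries known, so the counts are descriptions.

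The lists of the integrated stress response and of interferon genes had larger day 3 medians than the p53 target lists. The lists overlap, since SESN2 is in both the ATF4 and CHOP list and the list of other p53 targets. Of 11 ATF4 and CHOP genes tested, 7 were at least 2-fold higher in shAPC, with a median of 1.498, among them ATF3 (5.44), DDIT3 (3.42) and TRIB3 (2.03). All 16 interferon genes reached 20 CPM and 15 were at least 2-fold higher, with a median of 2.29, among them IFI6 at 84.9 and 825 CPM (3.28). Over all tested genes 3.86% were at least 2-fold higher. Some listed genes reached 20 CPM at day 3 only in shAPC, where they were high. Among them were ATF3 (1.03 and 44.7 CPM), CCL5 (1.43 and 56.1 CPM), CXCL10 (2.34 and 32.1 CPM) and IFNB1 (0 and 23.7 CPM). The 20 CPM minimum therefore partly set these counts and medians, which are descriptions. At day 7 none of 7 ATF4 and CHOP genes was past 2-fold, and 3 of 6 interferon genes were at least 2-fold lower in shAPC, beside 1.77% of all tested genes. The part of these programmes in the levels of the p53 targets was not tested.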

How the data were processed

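Single HCEC 1CT cells of 4 libraries were studied by 3' scRNA-seq. The authors aligned the reads to hg38 (GRCh38; STAR and Cell Ranger are named in the submitters' processing notes) and deposited raw UMI counts per gene and called barcode, not normalized, as whole numbers with unequal totals. The ComBat correction and imputation of the study were not applied, since the shRNA and the library cannot be told apart. Cell calling settings and the annotation release are not given in the sources used here.

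Kept barcodes had 200 genes or more, 500 UMIs or more and a share of UMIs from the 13 mitochondrial genes under 5%. No doublet caller was run, and leaving out the 5% of cells with the most UMIs was an alternative. UMIs were summed per library and scaled to CPM. CPM have exact Poisson, ratios exact conditional binomial and shares exact binomial (Clopper-Pearson) 95% intervals. These cover counting error only. With 1 library per group no test was run. The ratios over all genes used log2 of CPM + 1 and genes that reached 20 CPM in either library, and ratios of named genes used no pseudocount. Thinning drew 2000 UMIs per cell for shares and 5000 for splits by marker.

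The members, the gene lists and the alternatives were chosen with earlier results of these data known. Named genes were the 9 members, CDKN1A and APC, up to 4 genes per list with the largest ratio relative to all genes in a comparison, and the 3 genes nearest in profile to each member of at least 20 CPM that spanned at least 1 on the log2 scale. Some items are not reported here. FASLG, outside that rule, was named after its values were seen, and the search for p53 response elements with mismatches and for TGACG was added after the data were seen. DIABLO was left out because its symbol matches more than 1 gene. The count code was tested on simulated data. Python 3.11.15, numpy 2.4.6, scipy 1.17.1, pandas 2.3.3, R 4.3.3, edgeR 4.0.16 (TMM) and DESeq2 1.42.0 (size factors) were used.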

Additional observations from a re-analysis of the deposited data

Results flagged for a closer look

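BAX and TNFRSF10B were flagged because shAPC lay above shScr at day 3 and below it at day 7. For BAX the log2 ratios were 0.33 and -0.25, and for TNFRSF10B 0.47 and -0.23. The day 3 ratio of BAX became -0.05 under TMM scaling and -0.03 under DESeq2 size factors, so no direction can be given for it at day 3. That of TNFRSF10B ranged from 0.09 to 0.52 over the alternatives. With 1 library per group the difference between the days was not tested.

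The barcodes removed by the mitochondrial limit, which the comparisons do not use, also held higher levels in shAPC than in shScr for several genes, with counting intervals above 0. In log2 ratios for day 3 and day 7, BBC3 had 1.17 and 1.54, SESN1 0.67 and 0.81, and MDM2 0.22 and 0.51. PMAIP1 had 0.88 at day 3, and FAS and ZMAT3 had 0.86 and 0.30 at day 7. In the removed shAPC day 7 barcodes FAS was at 35.7 CPM, beside 19.6 CPM in those of shScr day 7. Other genes had intervals below 0 in these barcodes, which were TP53I3 at day 3 (-0.38, -0.61 to -0.15) and day 7 (-0.33, -0.46 to -0.21), TNFRSF10B at day 3 (-0.22, from -0.44 to just under 0) and BAX at day 7 (-0.13, -0.22 to -0.05).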

How the results depend on the processing

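No paired analysis was possible because each group holds 1 library. For the same reason no library was left out.

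Under TMM scaling, DESeq2 size factors, totals without mitochondrial and ribosomal protein genes and the mean over cells of CPM, the median log2 ratio of the 9 genes at day 3 was 0.27, 0.29, 0.54 and 0.52 in place of 0.65, and it was 0.46 without cells that held an ATF3 UMI and 0.54 without those that held a DDIT3 UMI. In place of 4 genes, 2 were then past 2-fold with TMM, with DESeq2 size factors and without the 5% of cells with the most UMIs, and 0 without ATF3 or DDIT3 cells. At day 7 the median was 0.31 with all deposited barcodes, 0.32 with a mitochondrial limit of 10% and -0.15 with the mean over cells in place of 0.18, and 1 gene in place of 0 was past 2-fold with all barcodes, with the limit of 10% and without the 5% of cells with the most UMIs. For day 7 against day 3 in shScr, the mean over cells gave a median of 0.42 in place of 0.04 and 1 gene past 2-fold in place of 0. In shAPC the median of -0.52 became -0.22 with TMM, DESeq2 size factors or no ATF3 cells, -0.095 without DDIT3 cells, -0.35 without mitochondrial and ribosomal genes or with the limit of 10%, -0.34 with all barcodes and -0.31 without the 5% of cells with the most UMIs. The cause of these shifts was not tested.

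Of all genes, 222 were past 2-fold at day 3, and 401, 42 and 528 with a minimum of 5 CPM, 100 CPM or none, where fewer or more genes are tested, and 144 with DESeq2 size factors. At day 7 the count of 117 became 204, 34 and 299 under those minima, in shScr over time 51 became 90, 20 and 115, and in shAPC over time 302 became 497, 69 and 603, and 154 with TMM or DESeq2 size factors. The other 70 alternative medians and counts, among them those of the members with only cells of at least 2000 genes, stayed within the interval of the middle gene or within 1.5 times.

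No member past 2-fold changed sign. BAX over time in shAPC (-0.21) became 0.09 with TMM and DESeq2 size factors, and BBC3 over time in shScr (0.04) became -0.10 with all barcodes. BBC3 over time in shAPC lay just under 2-fold, at -0.98, and ranged from there to 0.25 over the alternatives. No direction can therefore be given for that ratio. Depth limits SESN1 most, with 195 to 499 UMIs per library, and then BBC3.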

Other observations

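Some genes around p53 that were too low for the count over all genes, or that the comparisons above did not name, are given as values, chosen after they were seen. PPM1D, the phosphatase that reverses p53 phosphorylation and is itself a p53 target, was at 4.22 CPM in shScr day 3 and 12.0 CPM in shAPC day 3, and at 6.5 and 5.73 CPM in the day 7 libraries, with a day 3 log2 ratio of 1.51. MDM4, the MDM2 relative that masks the p53 transactivation domain, was at 17.9 and 23.2 CPM at day 3 and 17.4 and 18.3 CPM at day 7. CDKN2A, whose locus encodes the MDM2 inhibitor ARF beside p16, was at 385 and 455 CPM at day 3 and 416 and 270.5 CPM at day 7, with a day 7 log2 ratio of -0.62. The 3' counts do not separate its products. TNFSF10, the gene of the DR5 ligand TRAIL, stayed under 2 CPM in all 4 libraries. It had 11 UMIs in shScr day 3 and 57 in shAPC day 3, a log2 ratio of 2.56 (1.61 to 3.64) from few counts. The day 7 libraries had 7 and 3 UMIs.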
